A study of Ovis aries with 23 samples.

Results

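The comparison described here set border muscle against remote muscle of the ventricle in fetal sheep with a myocardial infarct. It used the 3 samples titled fetal border and the 3 titled fetal remote, 6 of the 23 samples of the study, chosen by those titles alone. The fetuses were operated on at 105 days of gestation, when the second diagonal branch of the left anterior descending coronary artery was tied off, and tissue was taken 3 days later. Border samples came from the zone next to the infarct and remote samples from muscle away from it in infarcted hearts, so the remote samples are not from unoperated animals. Fetal infarct samples, sham-operated fetuses and the same zones of adolescent sheep aged 6 months served as points of reference. Each had 3 arrays except 2 for adolescent sham. Their arrays also entered the spread behind each standard error and p-value, and the filter on dim probes. The labels name no breed, sex, line or genetic change, and do not say whether zones with the same replicate number came from 1 animal. If they did not come from separate animals within a group, the p-values reflect only the variation among the samples themselves, possibly technical.

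Total RNA of each sample carried the dye Cy3 and was hybridised alone to an Agilent array of 15008 different sheep probes. A level is the log2 of the background-subtracted signal minus the 75th percentile of its array, so 0 is the signal at that percentile and 1 unit is a 2-fold change. The 75th percentile itself lay between 494 and 618 intensity units on the border arrays and between 490 and 682 on the remote arrays. Tests covered 12454 probes that stood well above background on 2 or more arrays in some group. Of these, 878 named genes, each represented by its brightest probe, carry the description below. Each replicate number was hybridised on 1 slide, so border minus remote within a slide is a difference between arrays of the same number. Every border array sat at 1 position on its slide and every remote array at another, so position and zone cannot be told apart. With 3 arrays in a group, their number sets the precision. Probes for heart muscle transcripts (MYH7, TPM1 and MB) were well above background on all 6 arrays.

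When a coronary branch closes, muscle cells in its territory die. Their remains set off an inflammatory reaction in which resident cells release cytokines, neutrophils and monocytes enter, and macrophages clear debris with lysosomal proteases. Fibroblasts then lay down collagen and other matrix, and surviving muscle at the edge of the injury, the border zone, is known for inflammation, altered metabolism and changed wall stress. The fetal heart differs from the adult heart in that its muscle cells can still divide and that it burns mostly glucose and lactate in place of fatty acids.

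The probes that carry the differences described below are 60 bases long. For most, only the first 30 bases are shown, 5′ to 3′, as the array files give them. The 2 probes for SLC2A5 are shown because they overlap and so are not independent readings of that transcript. For the upstream probe the last 30 bases are given, and the capitals mark the 20 bases that it shares with the downstream probe.
SLC2A5, upstream probe: accaagtcagAGATTACTGATCCCAAATTA
SLC2A5, downstream probe: AGATTACTGATCCCAAATTAtattattaca
IL6: ggagccaaatcatttcttgaaatgtgtagg
PLAUR: tgtctggaagcgacaggcactaaaggactg
LGALS1: accctcgtttcgaagcgcatggggacatca
CTSS: taaagaaagccgtggccaataaaggacctg
A_70_P029611, unnamed: taatattcatcgcacttcttctgtggaagg
A_70_P029796, unnamed: aaactgagagttttcgtttatcgtaatagc
A_70_P009551, unnamed: ggaggtggagtcctttgaaaatggccttta

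Transcripts of cytokines, macrophages and matrix-degrading enzymes were higher on border arrays 1 and 2 than on the remote arrays, and much less so on border array 3. No probe passed the main test, which set the 3 border arrays against the 3 remote arrays without pairing them. At an adjusted p under 0.05 limma called 0 of 12454 probes (0%), with a lowest adjusted p of 0.972. At an unadjusted p under 0.05 there were 443 probes higher in the border (3.56%) and 122 lower (0.98%), together 4.54% of those tested. Of the 878 named genes, 64 were higher and 6 lower at that level. With the replicate number as a block the same threshold gave 703 probes and still 0 calls, with a lowest adjusted p of 0.701. All differences below are therefore measured values that did not pass, unless an adolescent or infarct comparison is named.

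The 3 slides differed in how far the zones stood apart. On slide 1, 568 probes were at least 2-fold higher and 1674 at least 2-fold lower in the border, 18% of all tested. On slide 2 these counts were 1057 and 139 (9.61%), and on slide 3 they were 354 and 106 (3.69%). Most of the lower probes on slide 1 were dim. Of the 1674, 1027 were not well above background on border array 1, and the median level of the 1674 was -5.37 against -1.55 for all tested probes. Remote array 1 also had the largest share of probes well above background, 81.7%, against 71.5% and 73% on the other remote arrays and 73.4% to 76% on the border arrays. Among the 10331 probes well above background on all 6 arrays, the 2-fold counts were 455 higher and 487 lower on slide 1, 468 and 58 on slide 2, and 50 and 6 on slide 3. The median difference of all tested probes was -0.24 on slide 1, 0.04 on slide 2 and 0.03 on slide 3, so the values of slide 1 lie on a lower baseline than the others.

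Border array 3 was nearer to remote tissue than the other border arrays were. Across the 12454 probes, whose levels share the probe and the slide, its correlation with remote array 3 was 0.991 and with infarct array 3 it was 0.945. Border array 1 stood the other way, at 0.965 with its remote and 0.988 with its infarct array. Border array 2 lay between, at 0.981 and 0.985. Among the 64 named genes that were higher at an unadjusted p under 0.05, the median difference was 1.41 on slide 1, 1.57 on slide 2 and 0.53 on slide 3, and slide 3 gave the smallest of the 3 differences for 60 of them. Border array 3 was the lowest border array for 33 of the 34 such genes that this text names, so leaving it out raises their differences by construction. Its removal brought 39 probes past the threshold, all higher in the border, among them IL6, IL1A, LGALS1, PLAUR, LGMN, BGN and ITGAV. With the replicate number as a block the same arrays gave 24 probes, without BGN and ITGAV and with PTGS2, the inducible cyclooxygenase. Leaving out any other of the 6 arrays left 0 calls.

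**Figure D1:**
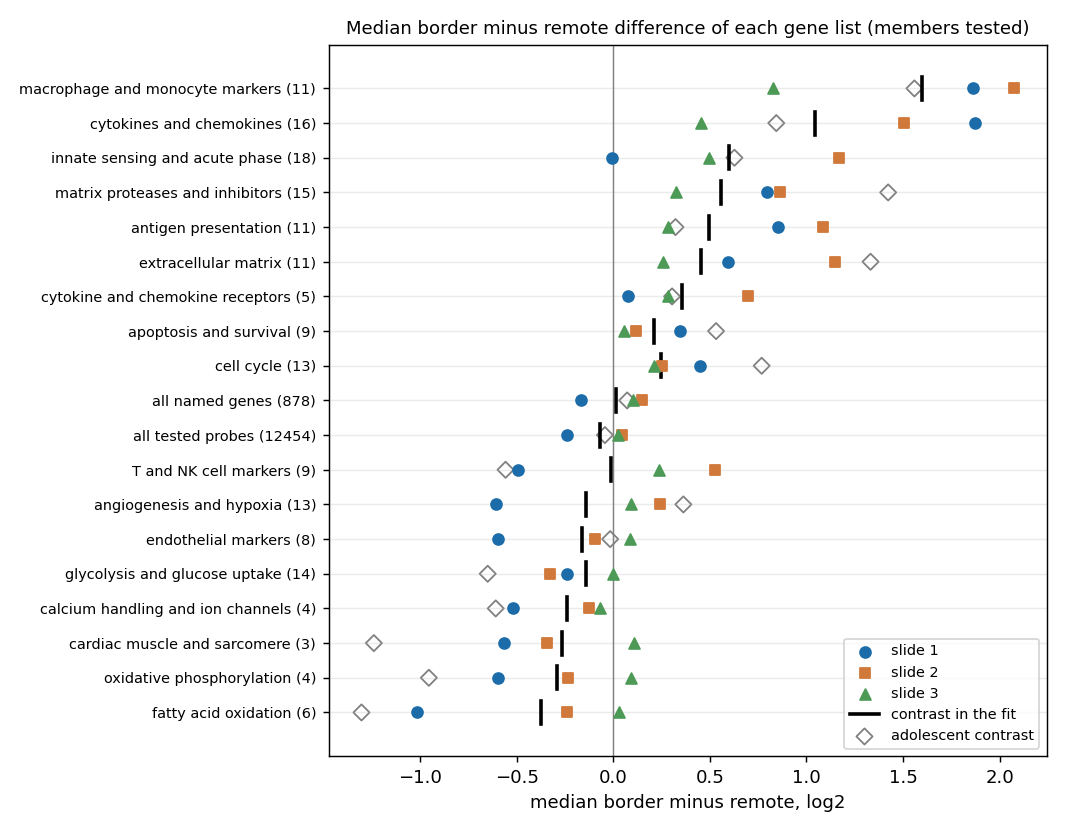
Each row is a gene list with its number of tested members, and the x axis is the list's median border minus remote difference in log2 units. Coloured points are the fetal difference on each slide, black bars the median of the fetal contrast in the limma fit and open grey diamonds the median of the adolescent contrast; the macrophage, cytokine, protease and matrix lists lie to the right of all tested probes, and the slide 3 points lie closest to 0 for most of the lists drawn.

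Cytokines were the first group in order of role. Of 16 members tested, 7 were higher at an unadjusted p under 0.05, none was lower, and 9 were higher on all 3 slides. Of all tested probes 1975 (15.9%) were higher on all 3 slides, and of the 878 named genes 203 were. List members are named genes, so the counts of the lists below stand beside that second share. The list's median difference was 1.04 log2, against -0.07 for all tested probes and 0.01 for all named genes. Its medians were 1.87, 1.51 and 0.45 on slides 1, 2 and 3. On the authors' deposited values, over the members that table holds, the median was 0.32. The summed level of the list was 7.46, 7.43 and 7.48 log2 on the border arrays and 7.33, 7.32 and 7.02 on the remote arrays. It is the log2 of summed linear signals, so the brightest members mostly set it. The cytokines whose levels are given below had negative levels on every border and remote array. The sum therefore does not show how they stood on border array 3. The same list had a median of 2.15 in fetal infarct minus remote, a comparison that shares the 3 remote arrays and in which 1193 probes passed as higher (9.58%) and 978 as lower (7.85%).

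IL6, a cytokine of acute inflammation, had levels of -1.07, -2.51 and -6.27 on border arrays 1 to 3. It was at -7.04, -7.23 and -7.53 on the remote arrays. The groups did not overlap, but border array 3 stood close to the remote arrays. The probe was well above background on border arrays 1 and 2 alone among the 6, so on this scaling IL6 was at least 6.30-fold higher in the border (adjusted p = 0.972, limma). The difference was 1.61 log2 with normexp and 0.54 log2 on the authors' deposited values, both smaller than that bound. In fetal infarct it lay between -1.11 and -0.09.

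IL1A, an alarm cytokine released by injured cells, was at -0.37, -0.70 and -2.93 in the border and at -2.86, -4.03 and -3.80 in remote tissue. Border array 3 lay just below the highest remote array. The difference was 2.23 ± 0.55 (SE of the fit) log2, or 4.70-fold, and IL1A was higher on each slide, by 2.49, 3.34 and 0.87. IL18, which is activated by the inflammasome, was at -0.06, -0.46 and -1.26 in the border and at -2.08, -2.18 and -1.30 in remote tissue. Its groups did not overlap, with the gap set by 1 pair, since slide 3 gave a difference of only 0.04. The mean difference was 1.26 ± 0.35 log2. Another probe named IL18 gave -0.49, against 1.26 and 1.19 for a pair that shares 20 bases.

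CXCL8, which draws neutrophils, was at -0.14, -2.17 and -4.07 in the border and at -3.34, -4.21 and -4.77 in remote tissue. The groups overlapped, and the difference on slides 1 to 3 was 3.20, 2.04 and 0.70. TNF, an early inflammatory cytokine, differed by 1.89, 1.63 and 0.53, with a mean of 1.35 ± 0.49. IL10, which restrains inflammation, differed by 2.13, 1.80 and -0.12, with a mean of 1.27 ± 0.50. IL1B was higher by 0.78, 1.08 and 0.63, a mean of 0.83 ± 0.52. Among these, only IL10 turned sign on slide 3. IL1RN, the natural antagonist of IL1 and named here after its value was seen, was at least 2-fold higher on all 3 slides, as were 45 probes in all (0.361%), while 5 (0.0401%) were at least 2-fold lower on all 3.

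Receptors for cytokines moved little. All 5 measured members were above 0, none at an unadjusted p under 0.05, with a median of 0.36 log2 and a highest value of 0.60. That highest value belonged to CXCR4, the receptor for the chemokine CXCL12, at 0.60 ± 0.37.

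Innate sensing genes came next. Of 18 members, 4 were higher at an unadjusted p under 0.05 and none lower, with a median of 0.60 log2 and medians of -0.01, 1.17 and 0.50 on slides 1 to 3. TLR2, a receptor for bacterial lipoproteins and for products of damaged tissue, was at -1.18, -2.61 and -4.11 in the border and at -3.51, -4.96 and -5.08 in remote tissue. The groups overlapped because border array 3 fell below remote array 1, yet the border was higher on each slide, by 2.32, 2.35 and 0.97. CD14, a coreceptor for lipopolysaccharide, was higher by 1.68, 2.07 and 0.58, a mean of 1.45 ± 0.50. TLR6, a partner of TLR2, was higher by 1.21, 1.23 and 0.05. NOD2, a sensor of bacterial cell wall, was above background on 1 of 3 remote arrays. Its difference was 1.32 ± 0.53, or 0.76 with the arrays not above background raised to the background limit, and its other probe gave 0.08.

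Macrophage and monocyte markers had the largest median of the lists with at least 3 tested members. Of 11 members, 9 were higher at an unadjusted p under 0.05, none was lower, and 10 were higher on all 3 slides. The median was 1.60 log2, with 1.86, 2.07 and 0.82 on slides 1 to 3. It was 0.72 on the authors' deposited values, over the members that table holds, and 2.34 without border array 3. The summed level of the 11 markers was 5.58, 5.18 and 3.47 log2 on the border arrays. It was 3.22, 3.19 and 2.83 on the remote arrays and 5.68 to 6.66 on the infarct arrays. The zones did not overlap, but border array 3 lay nearer to the remote arrays than to the other border arrays. In bulk tissue more cells of a type and more RNA per cell cannot be told apart, and the part of these markers in the other differences was not tested.

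SLC11A1, a metal transporter of phagosomes, was at 1.70, 0.94 and -2.57 in the border and at -2.64, -2.93 and -4.00 in remote tissue. The groups did not overlap, but border array 3 lay just above remote array 1. The difference was 3.22 ± 1.11 log2, or 9.29-fold, and 2 probes that share no bases gave 3.22 and 3.13. CTSS, a lysosomal cathepsin, was at 3.28, 2.94 and 1.18 in the border and at 0.85, 0.34 and 0.18 in remote tissue, 4.02-fold higher (2.01 ± 0.59). Every border array was above every remote array.

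LGMN, a lysosomal protease, was at 4.41, 4.07 and 2.19 in the border and at 1.92, 2.13 and 1.86 in remote tissue. It was 3-fold higher (1.59 ± 0.46), with 0.33 on slide 3 against 2.50 and 1.94. FCER1G, the shared signalling chain of Fc receptors, was higher by 2.29, 1.69 and 0.82, with no overlap. CD86, a costimulatory molecule of antigen-presenting cells, was higher by 2.65, 1.83 and 0.64. FCGR2B, an Fc receptor, and CLEC6A, a C-type lectin receptor, were named here after their values were seen. They were among the 10 named genes at least 2-fold higher on all 3 slides, with IL6, SLC2A5, PLAUR, SLC11A1, S100A4, IL1RN, STAR and DQB1.

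Markers of other blood cells had list medians nearer to 0, but their slides differed in sign. Of 3 neutrophil markers, ITGB2, an integrin chain that other leukocytes carry too, was higher by 2.63, 1.94 and 0.84. The other members, MMP9 at 0.24 ± 1.06 and LTF at -0.16 ± 0.86, had standard errors larger than their differences. The list's median was 0.24, with -0.44, 0.69 and 0.68 on slides 1 to 3. Of 9 T and NK cell markers, none reached an unadjusted p under 0.05 in either direction. Their median was -0.01, with -0.49, 0.52 and 0.24 on slides 1 to 3, where all named genes stood at -0.17, 0.15 and 0.10. CD3D, a chain of the T cell receptor complex, was at -0.21 ± 0.31 and CD247, another, at 0.41 ± 0.27. The 4 erythroid markers had a median of -0.03, with -0.72, 0.03 and 0.23 on slides 1 to 3. Their summed levels were 7.05 to 7.27 in the border and 6.91 to 7.40 in remote tissue.

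**Figure D2:**
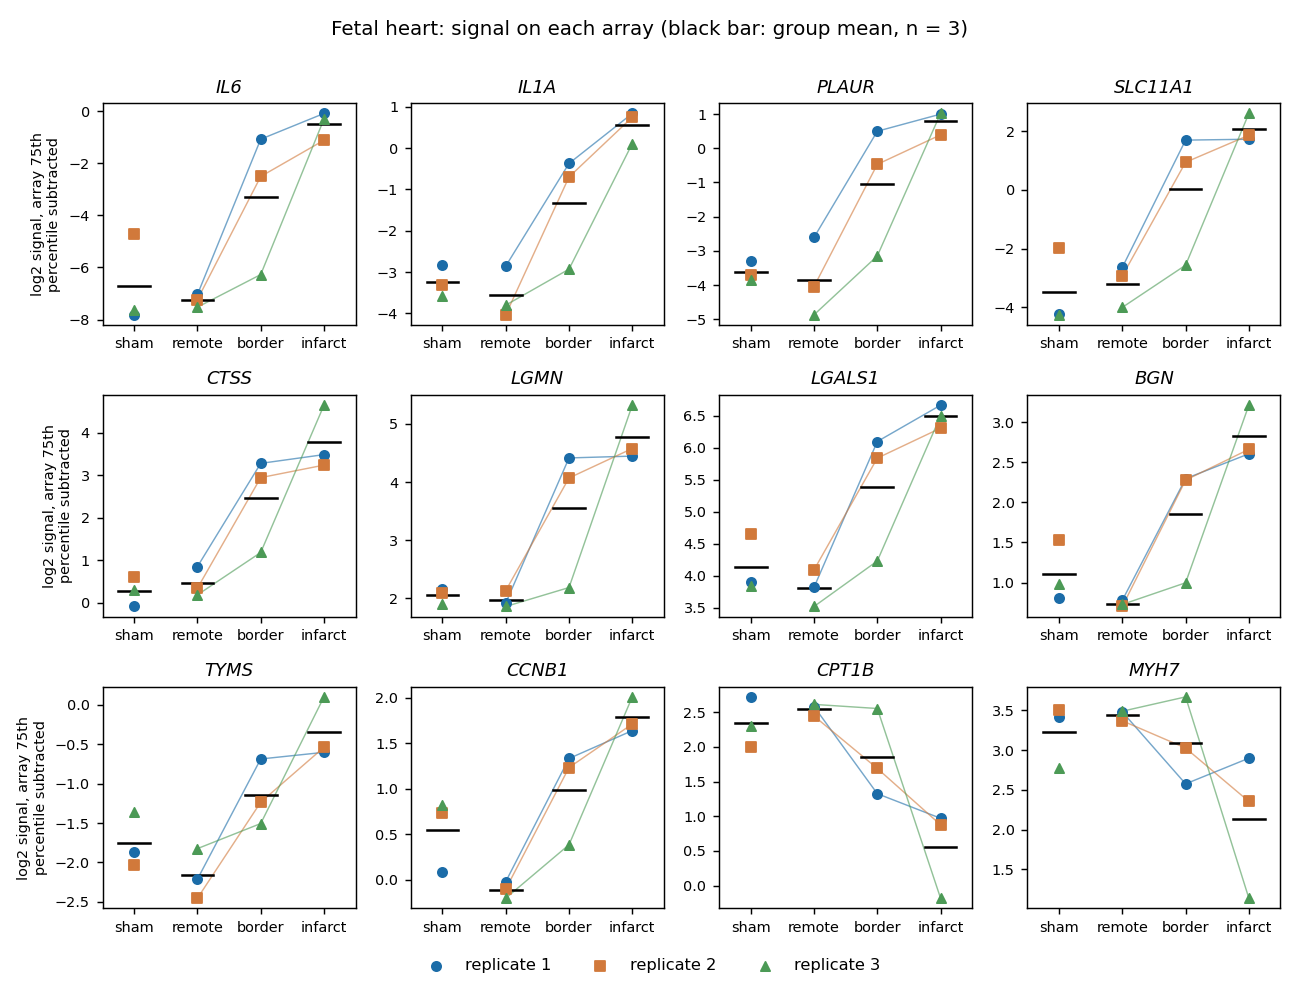
Each panel is a gene, each point an array, coloured and shaped by replicate number, with the log2 level on the y axis and fetal sham, remote, border and infarct on the x axis; thin lines join zones of 1 replicate number and black bars are group means. For IL6, IL1A, PLAUR, SLC11A1, CTSS, LGMN and LGALS1, border points 1 and 2 lie near the infarct points and border point 3 lies near the remote points.

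Antigen presentation and complement genes were partly higher. Of 11 antigen presentation members, 4 were higher at an unadjusted p under 0.05 and 8 on all 3 slides, with a median of 0.50 log2. PSMB8, a subunit of the immunoproteasome, was at -0.05, -0.36 and -0.34 in the border and at -1.37, -1.46 and -0.95 in remote tissue. It was 2.02-fold higher (1.01 ± 0.32), and here border array 3 stood with the other border arrays. DRB1, a chain of MHC class II, was higher by 1.09, 1.08 and 0.24. C5AR1, the receptor for the complement fragment C5a, was higher by 2.00, 1.73 and 0.48. Interferon response genes had a median of 0.24 over 10 members. MX2, an antiviral GTPase, was at 1.52, 1.15 and -0.12 on slides 1 to 3.

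Proteases that open the matrix, and their inhibitors, were higher on border arrays 1 and 2. Of 15 members, 5 were higher at an unadjusted p under 0.05, none was lower, and 10 were higher on all 3 slides, with a median of 0.56 log2 and slide medians of 0.79, 0.86 and 0.33. LGMN and CTSS belong to this list as well as to the macrophage list, and CTSS also to antigen presentation. PLAUR, the receptor for urokinase, was at 0.50, -0.47 and -3.15 in the border and at -2.60, -4.04 and -4.87 in remote tissue. The border was higher on each slide, by 3.10, 3.57 and 1.72, but the groups overlapped, because border array 3 lay below remote array 1. The difference was 2.80 ± 0.76 log2, or 6.95-fold. PLAU, which makes urokinase itself, differed by only 0.39 ± 0.29. CTSB, another cathepsin, was higher by 1.99, 1.33 and 0.16. TIMP1, an inhibitor of matrix metalloproteinases, was higher by 2.52, 0.86 and 0.34, a mean of 1.24 ± 0.65.

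Structural matrix genes followed with smaller differences. Of 11 members, 3 were higher at an unadjusted p under 0.05 and none lower. The median was 0.46 log2, with slide medians of 0.59, 1.15 and 0.26. The summed level of the list did not separate the zones, at 6.84, 6.96 and 6.57 on the border arrays and 6.96, 6.75 and 6.57 on the remote arrays. BGN, the small proteoglycan biglycan, was at 2.29, 2.28 and 1.00 in the border and at 0.78, 0.70 and 0.73 in remote tissue. It was 2.17-fold higher (1.12 ± 0.34) with no overlap, and border array 3 was 0.27 above its remote partner. COL12A1, a fibril-associated collagen, was at 2.30, 2.09 and 0.63 in the border and at 0.51, 0.43 and 1.04 in remote tissue, so the sign turned on slide 3. COL5A2 was higher by 1.00, 1.22 and 0.05.

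The abundant fibrillar collagens had differences close to their standard errors. COL1A1 was at 0.55 ± 0.50 log2, COL1A2 at 0.78 ± 0.64 and COL3A1 at 0.46 ± 0.66. Of 7 fibroblast markers, 1 was higher at an unadjusted p under 0.05, with a list median of 0.61. That one was S100A4, a small calcium-binding protein found in motile fibroblasts and leukocytes, at 4.58, 3.34 and 0.97 in the border and at 1.11, 0.95 and -0.24 in remote tissue. The difference was 2.36 ± 0.83, or 5.13-fold, with overlap between border array 3 and remote array 1. VIM, the intermediate filament of mesenchymal cells, was higher by 0.79, 0.76 and 0.27. LGALS1, a galectin that is in no list, was at 6.1, 5.84 and 4.23 in the border and at 3.82, 4.09 and 3.52 in remote tissue. It was 2.98-fold higher (1.58 ± 0.42) with no overlap.

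Growth factor pathways showed no common direction. The 24 TGF-beta and BMP members had a median of -0.06 log2, with 10 above 0, and none reached an unadjusted p under 0.05. TGFB1, the main fibrosis-promoting ligand, differed by 0.16 ± 0.28. TGFB2, its relative, differed by 1.23, 0.67 and 0.14 on slides 1 to 3. FST, which binds and blocks activins, differed by 0.91, 2.25 and -0.41. The 22 IGF and growth factor members had a median of -0.11. The binding proteins IGFBP3 and IGFBP2 differed by 0.84 ± 0.42 and 0.79 ± 0.48, while IGF2, the main fetal growth factor of the family, was at -0.11 ± 0.30. Of 6 developmental signalling members, FZD2, a receptor for WNT ligands, was the 1 with an unadjusted p under 0.05, at -0.12, -0.14 and -0.84 in the border and -1.25, -1.50 and -1.30 in remote tissue. WNT5A, a ligand, was at -0.40 ± 0.26.

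Of 13 cell cycle genes, 5 were higher in the border at an unadjusted p under 0.05, none was lower and 10 were higher on all 3 slides. The summed level of the list did not follow, at 5.73, 5.68 and 5.90 log2 on the border arrays and 6.06, 6.55 and 5.68 on the remote arrays. CCND2, a cyclin of the G1 phase, stood at -0.67, -1.23 and 0.29 on slides 1 to 3 and was chosen here after its value was seen. The list median was 0.25, with slide medians of 0.45, 0.25 and 0.21. TYMS, which makes thymidylate for DNA synthesis, was at -0.69, -1.24 and -1.51 in the border and at -2.21, -2.45 and -1.82 in remote tissue, 2.03-fold higher (1.02 ± 0.31). CCNB1, the cyclin of mitotic entry, was at 1.33, 1.23 and 0.38 in the border and at -0.02, -0.10 and -0.20 in remote tissue, 2.13-fold higher (1.09 ± 0.37). CDK1, its kinase, was higher by 1.10, 0.80 and 0.64, and AURKA, a mitotic kinase, by 0.96, 1.05 and 0.62. For all 4 genes every border array was above every remote array, including border array 3. They were chosen by their moderated t in this contrast, which favours such separation. Of the 13 list members 5 had that arrangement and 0 the opposite one. Across all tested probes 574 (4.61%) had that arrangement and 631 (5.07%) the opposite one. Among the 878 named genes 60 had it and 28 the opposite one.

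Death and stress genes differed little. Of 9 apoptosis and survival members, 8 were above 0 and none reached an unadjusted p under 0.05, with a median of 0.21. BAX, which permeabilises mitochondria, was at 0.37 ± 0.30. All 6 heat shock and chaperone members were below 0, with a median of -0.12 and none at an unadjusted p under 0.05. Of 5 antioxidant genes, TXN, thioredoxin, was higher by 1.07, 0.70 and 0.11, and SOD2, the mitochondrial superoxide dismutase, stood at -0.61, -0.52 and -0.06.

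Glucose handling split by gene. Of 14 members, 1 was higher at an unadjusted p under 0.05 and none lower, with a median of -0.14. SLC2A5, a fructose transporter, was at 0.17, -1.87 and -3.62 in the border and at -4.81, -6.24 and -5.84 in remote tissue. No remote array was well above background, and all 3 border arrays were, so on this scaling SLC2A5 was at least 12.5-fold higher in the border. The difference was 2.00 log2 with normexp and 0.92 log2 on the authors' deposited values, both smaller than that bound. The overlapping probe shown above gave a larger fitted difference, 4.63 against 3.86 log2. SLC2A4, the insulin-responsive glucose transporter of muscle, stood at -0.56, -1.40 and -0.04 on slides 1 to 3. PFKM, the muscle phosphofructokinase, stood at -1.03, -0.54 and -0.14, and INSR, the insulin receptor, at -1.23, -0.16 and -0.37. PFKL, the liver isoform, was at 1.31, -3.25 and 0.43 in the border and 0.87, 0.89 and 0.49 in remote tissue. Its mean of -1.25 ± 0.71 rests on border array 2, and without that array it was 0.12.

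Genes of fatty acid use and contraction mostly had negative differences on slides 1 and 2, and none passed. The 6 fatty acid oxidation members had a median of -0.37 log2, with slide medians of -1.01, -0.24 and 0.03, and none reached an unadjusted p under 0.05. With normexp background correction, which moved the median of all probes to 0.27, the list median was 0.04. UCP3, a mitochondrial uncoupling protein, was at -1.59, 1.55 and 1.73 on slides 1 to 3, a difference of 0.56 ± 0.65. Another probe named UCP3 gave the other sign, at -0.65 ± 0.62. CPT1B, which admits fatty acids to muscle mitochondria, was at 1.33, 1.69 and 2.55 in the border and at 2.58, 2.45 and 2.61 in remote tissue. Border array 3 stood within the remote range and the other 2 border arrays below it, for a difference of -0.69 ± 0.37. PPARA, a nuclear receptor that drives fatty acid genes, was at -0.43 ± 0.26, and LPL, which frees fatty acids from lipoproteins, at -0.53 ± 0.61.

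The 4 oxidative phosphorylation genes were all below 0, with a median of -0.29. ATP5MC1, a membrane subunit of ATP synthase, was at 7.41, 7.60 and 8.18 in the border and at 7.90, 8.11 and 8.00 in remote tissue, lower on slides 1 and 2 and higher on slide 3. ATP5PO, a stalk subunit of the same enzyme, stood at -0.62, -0.31 and 0.0047 on slides 1 to 3. SLC25A11, a mitochondrial carrier that is in no list, stood at -0.52, -0.65 and -0.04. The 3 cardiac muscle genes had a median of -0.27, with MYH7, the slow heavy chain of myosin, at -0.90, -0.34 and 0.18 on slides 1 to 3, TPM1, tropomyosin, at -0.42, -0.49 and 0.11, and MB, myoglobin, at -0.56, -0.18 and -0.05. All 4 calcium handling and ion channel members were below 0 with a median of -0.24, among them GJA1, the gap junction protein connexin 43, at -0.26 ± 0.31 and ATP1B1, a subunit of the sodium pump, at -0.29 ± 0.25. On slide 1 these values stand against a median of -0.24 for all tested probes.

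Vessel genes had list medians below 0, but these turned sign between slides. The 8 endothelial markers had a median of -0.16 and the 13 angiogenesis and hypoxia genes one of -0.14. None reached an unadjusted p under 0.05. On slides 1 to 3 the medians were -0.60, -0.09 and 0.09 for the first list and -0.61, 0.24 and 0.09 for the second. All named genes stood at -0.17, 0.15 and 0.10. PECAM1, an endothelial adhesion molecule, was at -0.14 ± 0.21, VEGFA, the main vessel growth factor, at -0.28 ± 0.54 and HIF1A, the oxygen-regulated transcription factor, at 0.27 ± 0.35. Among 12 renin-angiotensin and adrenergic genes the median was -0.19. NR3C2, the mineralocorticoid receptor, was at 1.61, 1.96 and 1.57 in the border and at 2.22, 2.58 and 2.06 in remote tissue, a difference of -0.60, -0.62 and -0.49 on slides 1 to 3. Its groups did not overlap, and slide 3 gave nearly the same difference as the others.

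The 12 named genes with the highest moderated t and 1 sign on all slides ran from 0.56 to 3.98 log2, and 10 of them were well above background on all 6 arrays. The 12 lowest, from -1.72 to -0.40, were mostly dim: for 7 no border array was well above background, and in 9 remote array 1 held the highest of the 6 values. EM4c, named as the array gives it, had the lowest moderated t, but it was not well above background on any of the 6 arrays. LOC443188, an uncharacterised locus, was at -5.35, -5.36 and -5.67 in the border and at -3.99, -4.57 and -4.84 in remote tissue, well above background on 1 border array and on all 3 remote arrays. LOC443338, another, was among the highest by moderated t through its small spread, at 4.25, 4.14 and 3.84 against 3.44, 3.70 and 3.42.

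The unnamed probes given here were chosen as higher or lower in the border, so their direction follows from that choice. A_70_P029611, designed on a sheep expressed sequence tag, was at 1.03, 0.70 and -1.57 in the border and at -2.01, -2.74 and -2.77 in remote tissue, a difference of 2.56 ± 0.56 log2. A_70_P029796 was at 1.34, 0.95 and -1.41 in the border and at -1.50, -2.09 and -2.29 in remote tissue, a difference of 2.25 ± 0.50. In both, the border was higher on every array, with border array 3 again the lowest of the border. Among those chosen as lower, A_70_P044801 was at -2.07 ± 0.53 and A_70_P041896 at -1.86 ± 0.53. The first was well above background on no border array and 1 remote array, the second on 1 border array and all 3 remote arrays. All these probes had an adjusted p of 0.972 (limma).

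Probes were also chosen by adolescent infarct minus remote, a difference that holds no fetal level, and then read in the fetal border. The choice was not fully separate from the fetal arrays. Those arrays entered the variance of the fit behind the adjusted p and the filter on dim probes. There were 3415 probes higher in adolescent infarct than in adolescent remote tissue at an adjusted p under 0.05 (27.4% of those tested) and 3715 lower (29.8%). In the fetal border the higher set had a median difference of 0.26 on slide 1, 0.28 on slide 2 and 0.06 on slide 3, with 71.2%, 76% and 61.8% of its probes above 0. For the lower set the medians were -0.46, -0.14 and -0.0020, with 5.92%, 31.4% and 49.5% above 0. Among all tested probes 31.2%, 54.9% and 54.7% were above 0. The sets stood apart from all probes most on slide 1, less on slide 2 and least on slide 3. In fetal infarct minus remote, which shares the remote arrays, the higher set had medians of 0.40, 0.55 and 0.70 on slides 1, 2 and 3.

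**Figure D3:**
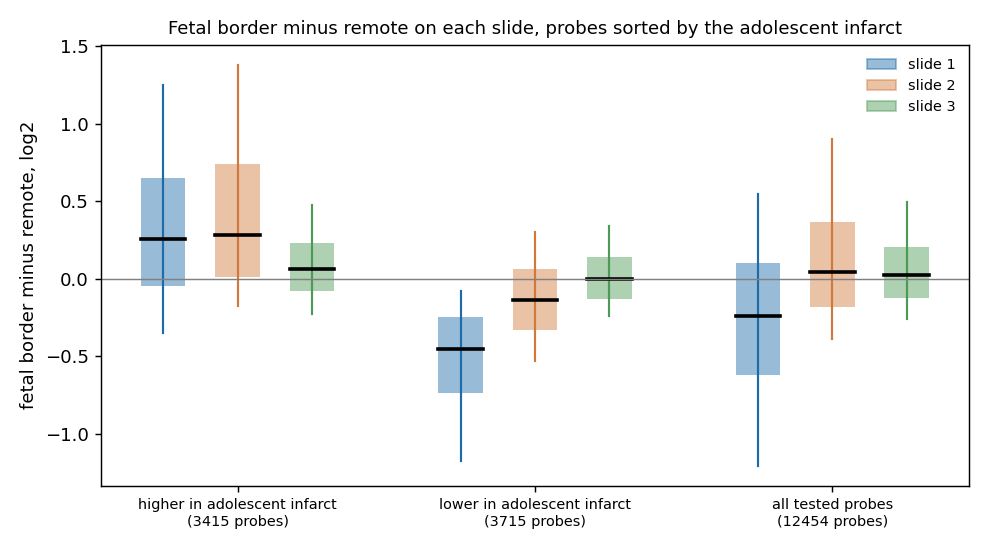
Fetal border minus remote in log2 units on each slide (colours), for probes higher or lower in adolescent infarct and for all tested probes; black lines are medians, boxes span the middle 50 percent of probes and thin lines run from the lower to the upper 10 percent. On slide 3 the median of the lower set is -0.0020 and that of the higher set 0.06.

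The same zones of adolescent hearts served as a comparison. In adolescent border minus remote 1603 probes were higher (12.9%) and 1620 lower (13%) at an adjusted p under 0.05, together 25.9% of those tested, with 152 higher and 84 lower named genes. The difference between the ages was tested directly. The test of that difference called 1 probe (0.00803%) and no named gene, with 1736 probes at an unadjusted p under 0.05 (13.9%). This count rests on few arrays: it was 576 without adolescent border array 3, 13 without adolescent remote array 1 and 3 or 4 without fetal border array 1, fetal remote array 2 or adolescent remote array 3. It stayed at 1 without fetal remote array 3 and was 0 without fetal border array 2 or 3, fetal remote array 1, or any of the other adolescent arrays of these zones. Adolescent border array 3 had the lowest 75th percentile of the border arrays, 230 intensity units.

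The probe called was A_70_P009551, which carries no gene name. It was at 1.34, 1.34 and 0.78 in the fetal border and at 0.26, 0.30 and 0.62 in fetal remote tissue. In adolescents it was at 1.54, 1.87 and 0.73 in the border and at -1.73, -2.51 and -3.08 in remote tissue. The border levels of the ages overlapped, and it was the remote levels that stood apart. The zone difference was 0.76 ± 0.32 in fetuses and 3.82 ± 0.32 in adolescents, a fetal minus adolescent difference of -3.06 ± 0.45 log2 (adjusted p = 0.0344), and with the replicate number as a block it did not pass (adjusted p = 0.0593).

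Cell cycle genes were among the named genes with large age differences. CDK1 differed by 0.84 ± 0.36 in the fetal border and by 3.45 ± 0.36 in the adolescent border, a gap of -2.60 ± 0.51 (adjusted p = 0.0724). TYMS differed by 1.02 and 3.03 (gap -2.00 ± 0.44, adjusted p = 0.0741). CCNB1 differed by 1.09 and 2.89 (adjusted p = 0.142 for the gap). Mean CDK1 levels were -0.16 in fetal and -0.70 in adolescent border, against -1.01 and -4.15 in remote tissue. For TYMS they were -1.14 and -0.86 against -2.16 and -3.89, and for CCNB1 0.98 and 1.24 against -0.11 and -1.66. In these cell cycle genes the ages lay further apart in remote tissue than in the border. SLC25A5, a mitochondrial ADP and ATP carrier, differed by 0.49 and 2.40 and PLAU by 0.39 and 2.22, both with an adjusted p of 0.0741 for the gap. For PLAU the ages lay further apart in the border, at -2.85 and -1.65, than in remote tissue, at -3.24 and -3.87. PPIA, a prolyl isomerase often taken as a reference gene, differed by 0.18 in fetuses and 1.39 in adolescents.

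In the other direction, DBP, a clock-controlled transcription factor, was at -0.04 ± 0.28 in the fetal border and at -2.11 ± 0.28 in the adolescent border (adjusted p = 0.0724 for the gap). ALDOA and GAPDH, glycolytic enzymes, were at -0.16 and -0.09 in fetuses and at -1.37 and -1.10 in adolescents. PYGB, a glycogen phosphorylase, was at -0.40 and -1.57, and FBXO32, a muscle ubiquitin ligase, at 0.05 and -1.89. None of these gaps passed the test, so the main test shows a difference between the ages for no named gene. Other settings did call named genes: 97 with array weights, 45 without adolescent border array 3, 5 with probes above background on all 12 arrays, 3 on the deposited values and 2 without adolescent remote array 1.

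Collagens gave a similar pair of values. COL3A1 differed by 0.46 ± 0.66 in fetuses and 2.88 ± 0.66 in adolescents and COL1A2 by 0.78 and 2.78, with adjusted p = 0.256 and 0.332 for the gaps. Mean COL1A2 levels were 1.87 in fetal and 1.77 in adolescent border, against 1.09 and -1.01 in remote tissue. The extracellular matrix list had a median of 0.46 in fetuses, with no member past the threshold, and of 1.33 in adolescents, with 6 of 11 members past it. The macrophage list had a median of 1.60 in fetuses and 1.56 in adolescents. Cytokine genes went either way: CXCL8 differed by 1.98 in fetuses and 0.76 in adolescents, and IL18 by 1.26 and 2.16. Neither gap passed the test.

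**Figure D4:**
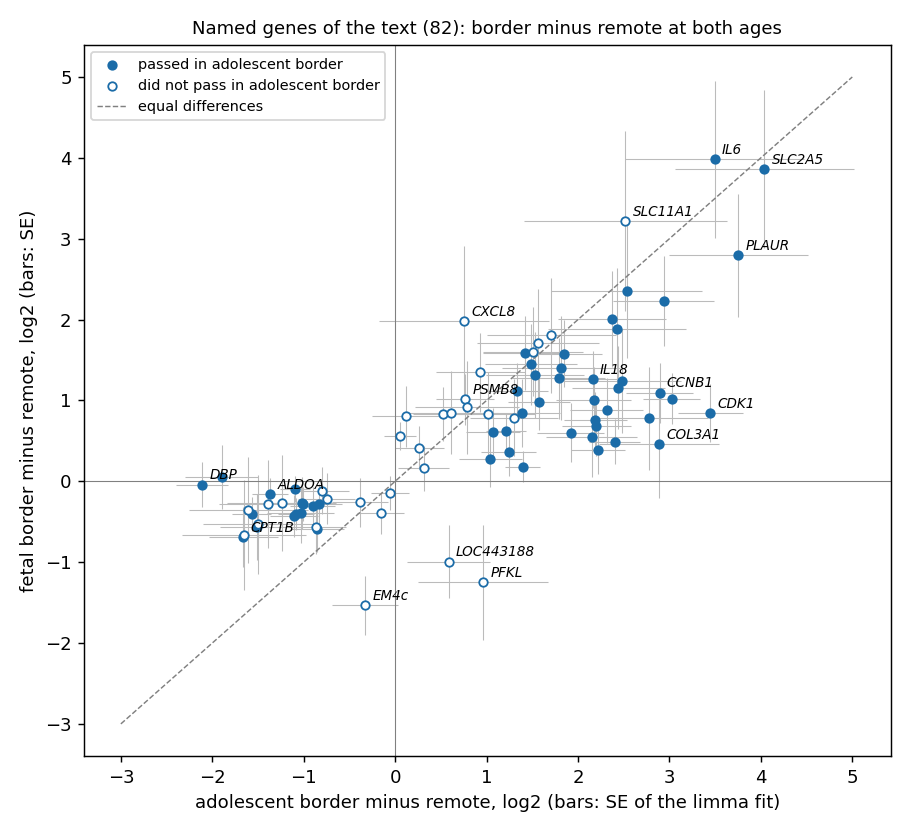
Each point is a gene named in the text, with adolescent border minus remote on the x axis and fetal border minus remote on the y axis, both in log2 units with bars of 1 SE of the limma fit; filled points passed the test in adolescents and none passed in fetuses. The genes were chosen in part by their fetal values; IL6 and SLC2A5 were not well above background on any fetal remote array, so their fitted values are not exact; CDK1, CCNB1 and COL3A1 lie well below the dashed line of equal differences.

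Without border array 3, and with 5 of the 6 arrays, the differences of the main genes grew. They had to grow wherever that array was the lowest of the border, and the adjusted p values below carry that choice. IL6 was at 5.48 log2 (adjusted p = 0.00596), IL1A at 3.03 (adjusted p = 0.0112), LGMN at 2.27 (adjusted p = 0.0168), LGALS1 at 2.15 (adjusted p = 0.0183), PLAUR at 3.85 (adjusted p = 0.0199) and BGN at 1.55 (adjusted p = 0.0466). With the replicate block BGN no longer passed, while the other 5 genes did. SLC2A5 missed the threshold at 4.78 (adjusted p = 0.0543), as did CTSS at 2.65 (adjusted p = 0.0629) and SLC11A1 at 4.51 (adjusted p = 0.0758). With both arrays of slide 3 left out, 4 probes passed and IL6 was the 1 named gene among them. Weighting arrays by their agreement with their group gave border arrays 1 to 3 weights of 1.05, 3.23 and 0.571. Remote arrays 1 to 3 had 0.561, 0.868 and 1.67. This weighting called 138 probes, 135 of them higher. These included 21 named genes, 20 higher, with IL6, IL1A, SLC2A5, CTSS, CD14, FCER1G, ITGB2, S100A4 and CCNB1 among them.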

How the data were processed

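Total RNA was labelled with Cy3 and hybridised to 1-colour Agilent arrays. The deposited scanner files hold a background-subtracted intensity per spot, from Feature Extraction 10.1.1.1 per the file headers. The submitters' processing notes name limma, with no version. The deposited series table holds the authors' log2 values for 8411 probes, with array medians of 9.27 to 9.31 and a normalization not given in the sources used here. It served as an alternative.

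From the intensities, log2 minus each array's 75th percentile was computed. Control spots and spots flagged as outliers were left out, and spots of 1 probe were averaged. Among the tested probes 92 values were then missing. The 12454 probes well above background on 2 arrays of a group were fitted with limma 3.58.1 in R 4.3.3 over all 8 groups, with Benjamini-Hochberg adjustment, after the scripts had been tested on simulated data. Of 15008 probes 1730 carry a gene name, giving 1054 names, and a gene is its brightest tested probe. Members and lists were chosen with earlier results of these data known. Named genes were a fixed set, up to 4 members of each list by moderated t, the 12 highest and 12 lowest by moderated t with 1 sign on all slides, and 5 each way for the age difference. Others were chosen after their values were seen.

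Replicate numbers coincide with slides and scans. Deviations of same-numbered border and remote arrays from their group means correlated at 0.309, 0.362 and 0.492, so the numbers were taken to pair the arrays and a block was fitted as an alternative. Other alternatives changed the background correction, the scaling, the filter, the arrays fitted, their weights and each replicate in turn. Some genes are not reported here.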

Additional observations from a re-analysis of the deposited data

Results flagged for a closer look

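A_70_P009551 was the 1 probe whose border minus remote difference was called different between fetal and adolescent hearts by the direct test, with a fetal minus adolescent value of -3.06 ± 0.45 log2 (limma, adjusted p = 0.0344). All 3 fetal and all 3 adolescent slides had a higher border than remote level. Over the alternatives the value ran from -3.42 to -1.76. The adjusted p was 0.00134 with array weights, 0.0251 on the deposited log2 values, 0.0275 with quantile scaling, 0.051 with no filter, 0.0593 with the replicate block and 0.212 on 12 arrays alone.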

How the results depend on the processing

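For fetal border minus remote, limma called 0 probes under quantile scaling (650 at an unadjusted p under 0.05), normexp background (135), the deposited log2 values (453), no filter (650), a filter on all 6 arrays (497), the replicate block (703), the 6 arrays alone (553) and the 6 arrays with the block (978). Array weights called 138 probes and 21 named genes. Leaving out 1 array gave 0 to 39 probes and 0 to 7 named genes, the highest without border array 3. Of the alternatives chosen after seeing the data, leaving out slide 3 called 4 probes and 1 named gene, and leaving out border array 3 with the replicate block called 24 probes and 6 named genes. The block ended the call of the age difference and, without border array 3, those of BGN and ITGAV.

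The age difference, 1 probe as reported, was called for 3 probes under quantile scaling, 0 under normexp, 34 on the deposited values, 0 with no filter, 41 with probes above background on all 12 arrays, 0 with the replicate block, 0 on the 12 arrays alone with or without the block and 1218 with array weights. Leaving out 1 array gave 0 to 576, the highest without adolescent border array 3. The cause of these changes was not tested.

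For 82 genes there were 1630 values under alternatives, of which 1579 kept direction and side of the threshold, 28 passed it and 23 turned sign, in 10 genes. With normexp, which moved the median of all probes to 0.27, the turned values were CD3D 0.58, INSR 0.49, PPARA 0.26, PPIA -0.058, FBXO32 -0.0065, DBP 0.20, EM4c 0.69 and LOC443188 0.47. Array weights turned FBXO32 to -0.013. Leaving out 1 array at a time, DBP ran from -0.32 to 0.17, FBXO32 from -0.12 to 0.28, PFKL from -2.16 to 0.12 and CD3D from -0.45 to 0.023. Leaving out slide 1 turned DBP to 0.24, and leaving out slide 2 turned PFKL to 0.20, FBXO32 to -0.15 and GAPDH to 0.0060. Without border array 3 and with the block FBXO32 was at -0.20.

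The macrophage list median ran from 0.72 (deposited values) to 2.34 (without border array 3), the cytokine median from 0.32 (deposited values) to 1.54 (without slide 3), the matrix median from 0.22 (without border array 2) to 0.93 (array weights) and the fatty acid oxidation median from -0.62 (without border array 3, with the block) to 0.04 (normexp). The protease median ran from 0.41 (deposited values) to 0.85 (quantile scaling) and the oxidative phosphorylation median from -0.48 (without border array 3, with the block) to -0.14 (without slide 1). Of 27 genes of the text at 1 log2 or more, 27 stayed above 0 on the deposited values, but 15 were smaller there by over 1.5 times, as were 3 with normexp and 0 with quantile scaling. Probes not well above background have only a bound.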
